A study of Mus musculus with 106 samples.

Results

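The 8 genes described here encode transcription factors on the output side of the circadian clock: the nuclear receptors REV-ERBα (Nr1d1) and REV-ERBβ (Nr1d2), the PAR bZIP factors Dbp, Tef and Hlf with their counterpart Nfil3, and the basic helix-loop-helix repressors Bhlhe40 (DEC1) and Bhlhe41 (DEC2). They were chosen by symbol, with earlier results of the same temperature comparisons known, and all 8 were found in each of the 4 count tables, which share 20192 genes. The changes with temperature below are therefore a description of these genes and carry no test of the group. Expression was read by bulk RNA-seq in tissues of male wild-type C57BL/6J mice housed under a light-dark cycle. Mice of the cold experiment were brought stepwise to 10 °C and kept there for 2 weeks, and 11 tissues were taken: interscapular brown fat (iBAT), inguinal subcutaneous fat (ingSAT), perigonadal visceral fat (pgVAT), quadriceps, ileum, liver, spleen, bone marrow, spinal cord, brain and hypothalamus. Mice of the warm experiment were kept at 34 °C for 4 weeks, and iBAT, ileum, liver, quadriceps and brain are described. Each exposed group was set against its own 22 °C libraries, 16 comparisons of 105 libraries in all. The labels give ages of 11 weeks in the cold experiment and 12 weeks in the warm experiment and for quadriceps. Mice of the cold and the warm experiment came from different breeders. A library pools 2 mice, except that bone marrow and spinal cord libraries are 1 mouse each. For iBAT of the warm experiment the study's sources differ, one giving pools throughout and the other single mice at 22 °C and both kinds at 34 °C. The hour at which tissues were collected is not given in the sources used here, so hour of collection and temperature cannot be told apart.

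REV-ERBα and REV-ERBβ are heme-binding receptors that repress genes with a ROR response element (RORE) in their control regions, among them Arntl (BMAL1) and Npas2, while the ROR receptors activate from the same element. DBP, TEF and HLF bind D-box elements as activators, and NFIL3 (E4BP4) binds the same element as a repressor, so PAR bZIP and NFIL3 levels peak at opposite times of day in tissues such as liver. BHLHE40 and BHLHE41 bind E-boxes and oppose CLOCK and BMAL1 there. The mRNA of most of these genes rises and falls daily in most tissues. Bhlhe40 also responds to hormones, hypoxia and nutrients.

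On GRCm38, the assembly also called mm10, Nr1d1 lies at chr11:98767932-98775333 on the minus strand, Nr1d2 at chr14:18204054-18239127 (minus), Dbp at chr7:45705088-45710203 (plus), Tef at chr15:81802421-81826863 (plus), Hlf at chr11:90336536-90390895 (minus), Nfil3 at chr13:52967209-52981073 (minus), Bhlhe40 at chr6:108660629-108666925 (plus) and Bhlhe41 at chr6:145858243-145865558 (minus). Nr1d1 shares 263 exon bases (8.5% of its exon length) with Thra on the opposite strand, Dbp 539 bases (18%) with Sphk2 and Bhlhe41 1280 bases (19%) with Gm43909. In the 8 tissues of the largest count table the library kit does not mark strand, so reads in these stretches cannot be assigned to one gene.

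RefSeq promoters (GRCm38.p6, 250 bases before to 50 after the start) were matched for 7 of the 8 genes, 8 windows in all because Tef has 2 starts. They are shown for Dbp and Nr1d1, which were called lower in the most tissues, and for Tef and Bhlhe41, which hold an E-box. Capitals mark the E-box CACGTG, searched on both strands together with the D-boxes TTATGTAA and TTACGTAA and the RORE. The E-box was found in both Tef windows and in that of Bhlhe41, at bases −138 to −133 from the second Tef start and −153 to −148 from the Bhlhe41 start, and in 7.15% of 32851 RefSeq promoter windows. No D-box (1.06% of all windows) and no RORE (0.384%) matched in the windows of these genes, which says only that these letters are not within the windows.
Nr1d1, chr11:98775328-98775627, minus strand: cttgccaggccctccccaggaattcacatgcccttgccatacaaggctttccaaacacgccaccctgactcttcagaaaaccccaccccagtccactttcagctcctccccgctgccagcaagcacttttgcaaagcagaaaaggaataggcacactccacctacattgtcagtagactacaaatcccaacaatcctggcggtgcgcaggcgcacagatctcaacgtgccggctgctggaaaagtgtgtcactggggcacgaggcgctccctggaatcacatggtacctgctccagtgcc
Dbp, chr7:45704997-45705296, plus strand: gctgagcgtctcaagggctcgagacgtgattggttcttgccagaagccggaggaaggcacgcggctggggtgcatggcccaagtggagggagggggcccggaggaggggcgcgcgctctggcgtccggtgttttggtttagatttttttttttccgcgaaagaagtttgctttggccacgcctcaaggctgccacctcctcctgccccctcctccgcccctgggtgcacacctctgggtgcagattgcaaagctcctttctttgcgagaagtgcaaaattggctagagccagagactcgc
Tef, second start, chr15:81811164-81811463, plus strand: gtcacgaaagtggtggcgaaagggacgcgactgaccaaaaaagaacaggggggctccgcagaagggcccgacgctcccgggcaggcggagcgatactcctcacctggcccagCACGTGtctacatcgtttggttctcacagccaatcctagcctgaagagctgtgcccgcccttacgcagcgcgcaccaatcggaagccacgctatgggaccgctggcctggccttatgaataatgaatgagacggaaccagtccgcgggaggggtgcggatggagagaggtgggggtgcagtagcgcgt
Bhlhe41, chr6:145865371-145865670, minus strand: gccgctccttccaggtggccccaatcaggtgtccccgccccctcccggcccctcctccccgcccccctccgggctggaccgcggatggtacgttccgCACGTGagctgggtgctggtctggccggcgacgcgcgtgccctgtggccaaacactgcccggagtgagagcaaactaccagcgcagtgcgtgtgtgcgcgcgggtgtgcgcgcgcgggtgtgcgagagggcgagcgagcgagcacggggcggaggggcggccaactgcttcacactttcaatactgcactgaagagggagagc

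Libraries held 4262403 to 58290770 counts (median 17676815) in the cold and 29545458 to 62880248 (median 41889787) in the warm experiment. Counts were scaled to counts per 1000000 (CPM) with TMM factors within each comparison. A gene counted as called higher or lower where its fold exceeded 1.5 and it passed the limit of 0.05 in edgeR's quasi-likelihood test over all genes of the comparison, without adjustment for multiple tests, and the share of all genes called the same way is given beside each count of members. Whether the libraries of a comparison overlapped is given as a description, without the share of all genes that did. The defining markers of each tissue were present. RNA of other organs was present too: the epididymis transcripts Lcn5, Lcn8, Crisp1 and Adam7 summed to 15840 and 19590 CPM in 10 °C replicates 1 and 3 of pgVAT against 2.39 CPM in replicate 2 and 573 to 2578 CPM at 22 °C, and pancreas transcripts reached 1259 CPM in 22 °C library 1 of quadriceps. Pancreas transcripts also ran from 0.629 to 1181 CPM at 22 °C and from 1.62 to 2361 CPM at 10 °C in spleen. The epididymis transcripts were at 0 CPM at 22 °C and 2.78 to 30.8 CPM at 10 °C in iBAT, and at 159.9 CPM in 10 °C library 1 of quadriceps against at most 0.0951 CPM in the other 5 libraries. In bulk tissue, fewer cells that express a gene and less RNA per cell cannot be told apart.

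At 22 °C the 8 genes differed in where they were most abundant. Levels were set per length as reads per kilobase of exon and per 1000000 counts (RPKM), within the 8 tissues of the largest table (3 libraries each, 2 in brain). Tef was most abundant in brain at 47.2 ± 2.15 RPKM (SD, n = 2) and hypothalamus at 44.7 ± 0.617 RPKM (SD, n = 3), and least in ileum at 4.56 ± 1.29 RPKM (SD, n = 3). Hlf had the same leading tissues, from 12.1 ± 0.431 RPKM (SD, n = 2) in brain to 0.288 ± 0.0745 RPKM (SD, n = 3) in spleen, with liver in the third place at 5.08 ± 1.17 RPKM (SD, n = 3). Spleen and ileum overlapped for Hlf. Nr1d2 led in hypothalamus at 24.8 ± 2.46 RPKM (SD, n = 3), with every library above every brain library. Nr1d1 was instead highest in pgVAT at 34.5 ± 15.9 RPKM (SD, n = 3) and ingSAT at 30.7 ± 2.72 RPKM (SD, n = 3), whose libraries overlapped. It was lowest in spleen at 2.004 ± 0.475 RPKM (SD, n = 3), which overlapped liver.

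Dbp ran from 17.5 ± 10.3 RPKM (SD, n = 3) in ingSAT to 0.454 ± 0.200 RPKM (SD, n = 3) in liver, and ingSAT, pgVAT, brain, hypothalamus and iBAT each overlapped the next in its order. Ileum and liver, the last tissues for Dbp, overlapped there. Liver was first for Nfil3 at 29.3 ± 6.30 RPKM (SD, n = 3), with every liver library above every ileum library. Ileum came next for Nfil3 at 9.38 ± 0.809 RPKM (SD, n = 3) and overlapped iBAT at 9.37 ± 1.17 RPKM (SD, n = 3). Last for Nfil3 was pgVAT at 2.71 ± 0.848 RPKM (SD, n = 3), which overlapped spleen. Bhlhe40 was highest in brain at 19.5 ± 0.898 RPKM (SD, n = 2), and from ileum down each of the other 7 tissues overlapped the next. Bhlhe41 was highest in hypothalamus at 7.09 ± 0.622 RPKM (SD, n = 3) and lowest in liver at 0.0770 ± 0.0441 RPKM (SD, n = 3). In the warm experiment, in another table and other mice, the 22 °C livers had 51.8 ± 9.52 RPKM (SD, n = 3) of Dbp, first of its 5 tissues and overlapping quadriceps. Liver was thus the last of 8 tissues for Dbp in one experiment and the first of 5 in the other. These values stand side by side only, since kit, breeder and age differed between the tables.

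**Figure D1:**
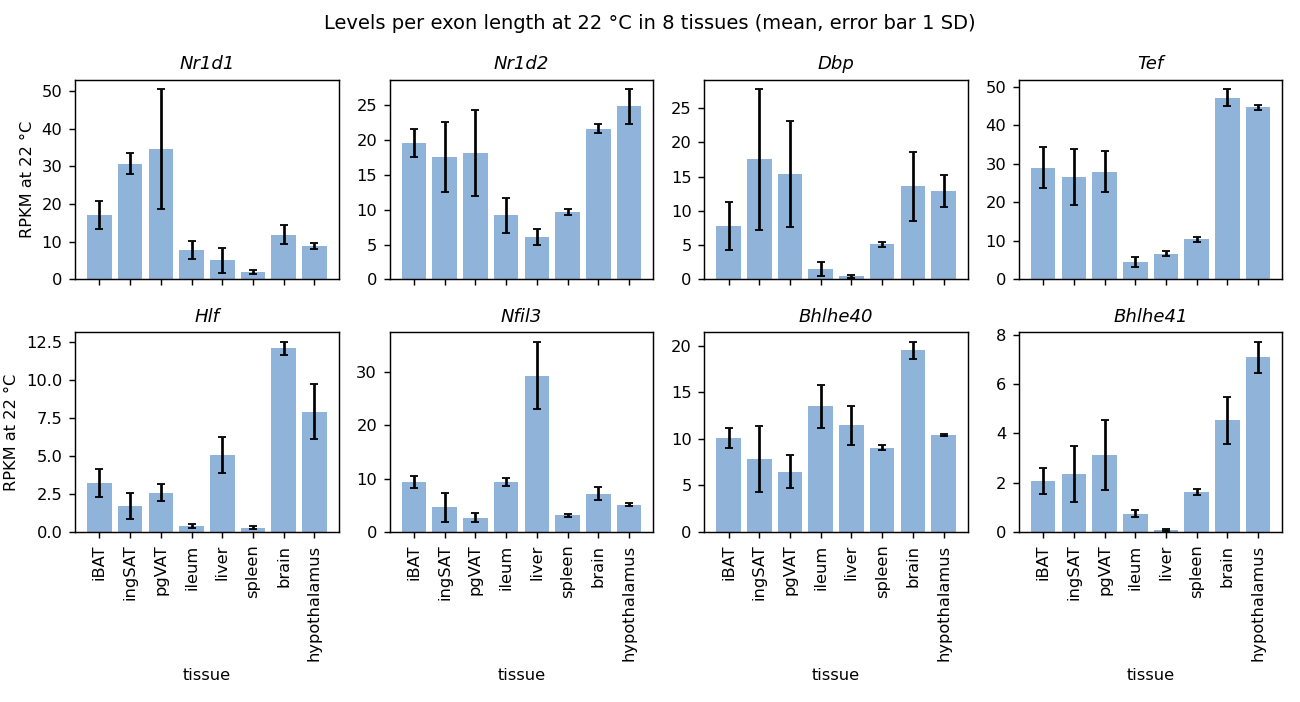
Mean level of each gene at 22 °C in RPKM in the 8 tissues of the largest count table, with error bars of 1 SD over 3 libraries (2 in brain). Tef and Hlf are highest in brain, Nr1d1 in the fat depots pgVAT and ingSAT, Nfil3 in liver, and Bhlhe41 in hypothalamus.

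At 10 °C Dbp and Nr1d1 were called lower in the 3 fat depots, ileum and quadriceps, and Nfil3 was called higher in the fat depots. Liver went the other way for Dbp and Nr1d2. Of 87 pairs of gene and tissue that passed the filter on low counts, 19 were called lower and 7 higher. With a Benjamini-Hochberg adjusted p under 0.05 in the same test, few calls were kept. These were Nr1d2, Dbp, Tef and Bhlhe40 in iBAT, Nr1d1, Dbp and Tef in ingSAT, and Nr1d1 in ileum. No call in pgVAT, quadriceps, liver or spinal cord was kept. In pgVAT and liver no gene of the whole comparison passed the adjusted limit together with the fold limit. Bhlhe41 in liver was the 1 pair that failed the filter.

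In iBAT, 5 of the 8 genes were called lower, beside 7.24% of the 12791 genes tested, and 2 higher, beside 6%. In ingSAT 4 were lower (9.14% of all genes) and 2 higher (7.2%). In pgVAT 3 were lower (3.47%) and 1 higher (4.46%). The ileum had 4 lower (1.26%) and 0 higher (1.44%). Quadriceps had 2 lower (0.743%) and 0 higher (3.09%), and spinal cord 1 lower (0.0904%) and 0 higher (0.181%). In liver 2 of 7 genes tested were called higher (0.74%) and 0 lower (2.54%). None of the 8 was called in 4 tissues: in spleen 0.638% of genes were called higher and 2.04% lower, in bone marrow 0.647% in each direction, in brain 0.515% and 0.286%, and in hypothalamus 0.399% and 0.179%. Since the genes were selected with these comparisons known, nothing is read from these counts. The median log2 fold change of the 8 genes was −0.70 in iBAT, −0.95 in ingSAT, −0.54 in pgVAT and −0.80 in ileum, against −0.02, −0.01, 0.03 and −0.01 over all genes. It was 0.50 over the 7 genes tested in liver, −0.475 in quadriceps and −0.205 in spleen, and it lay between −0.07 and 0.01 in bone marrow, hypothalamus, spinal cord and brain. At 34 °C it ran from −0.04 in brain to 0.24 in liver.

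**Figure D2:**
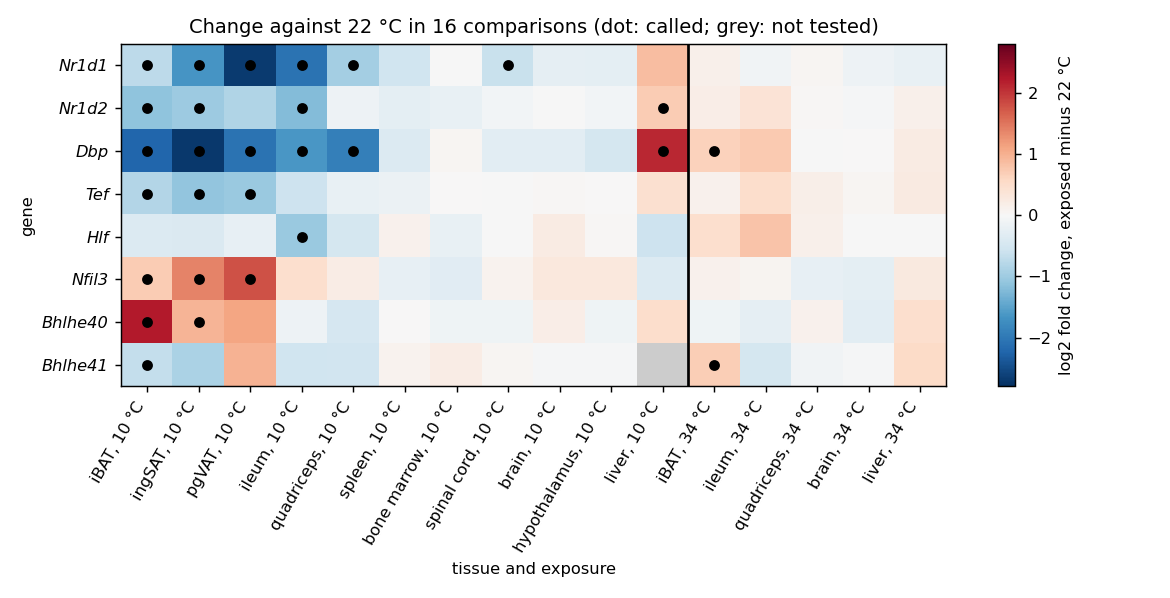
Log2 fold change of each gene (rows) against the 22 °C libraries of the same comparison (columns, 10 °C left and 34 °C right of the line), with blue for lower and red for higher. Dots mark called changes, which are most frequent in the fat depots and ileum at 10 °C, and grey marks Bhlhe41 in liver at 10 °C, which was not tested.

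Nr1d1 had a negative log2 fold change in 10 of 11 tissues, with 6 of these called lower. In pgVAT the 22 °C libraries had 76.8, 79.3 and 163 CPM, and the 10 °C libraries 15.9, 20.2 and 13.2 CPM. The log2 fold change was −2.69 (SE 0.373), and the groups did not overlap. In ileum the cold libraries lay within a narrow band at 5.65, 5.66 and 5.70 CPM, below 15.8, 24.6 and 30.5 CPM at 22 °C (−2.06, SE 0.232). In ingSAT, 86.4, 103 and 93.9 CPM at 22 °C stood against 44.5, 17.98 and 27.4 CPM at 10 °C (−1.66, SE 0.308). All 3 cold libraries were again below all 22 °C libraries, with replicate 1 the closest. In quadriceps the groups were apart as well, with 371, 282 and 270 CPM at 22 °C and 151, 171 and 156 CPM at 10 °C (−0.95, SE 0.148). Some fat markers were called higher at 10 °C in quadriceps and 2 of 4 enterocyte markers in ileum, and their part was not tested.

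In iBAT Nr1d1 had 44.8, 47.7 and 65.95 CPM at 22 °C and 41.7, 20.2 and 33.7 CPM at 10 °C, a log2 fold change of −0.73 (SE 0.249), without overlap. The call was lost without 10 °C replicate 2, at −0.48, or without 22 °C replicate 3, at −0.53. In spinal cord, where each library is 1 mouse, Nr1d1 had 71.1, 94.4, 80.3, 98.3 and 117 CPM at 22 °C and 58.3, 61.7, 62.2, 53.9 and 63.4 CPM at 10 °C (−0.62, SE 0.112), with no overlap. This call was lost without 10 °C replicate 4, at −0.59, or without 22 °C library 5, at −0.52. In hypothalamus the libraries were also apart, at 24.4, 29.1 and 27.8 CPM against 21.6, 23.1 and 22.5 CPM, a change of −0.28, SE 0.0835, under the fold limit.

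Nr1d2, the second REV-ERB, was called lower in iBAT, ingSAT and ileum. Its levels in iBAT were 97.5, 102 and 118 CPM at 22 °C and 59.2, 33 and 52.4 CPM at 10 °C (log2 fold change −1.13, SE 0.199). In ileum 37.5, 47.2 and 64.3 CPM stood against 20.9, 20.2 and 23.4 CPM (−1.21, SE 0.188). In ingSAT the values were 64.3, 104 and 117 CPM against 51.8, 34.7 and 54.04 CPM (−1.02, SE 0.263). In each of these tissues the cold libraries all lay below the 22 °C libraries. In pgVAT the 22 °C range of 69.8 to 135 CPM overlapped the cold range of 34.9 to 83.9 CPM, and in quadriceps the groups overlapped as well.

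Dbp, a PAR bZIP gene with a wide daily swing, had the most negative fold change of the 8 genes in iBAT, ingSAT and quadriceps. In ingSAT it had 19.8, 80.7 and 56.8 CPM at 22 °C and 8.36, 6.83 and 8.87 CPM at 10 °C, a log2 fold change of −2.71 (SE 0.483). The 22 °C libraries were widely spread while the cold ones were tight. In iBAT, 12.8, 23.7 and 33.7 CPM compared with 4.80, 3.46 and 6.86 CPM (−2.22, SE 0.357). In pgVAT, 20.3, 52.3 and 65.5 CPM compared with 13.1, 7.52 and 12.3 CPM (−2.06, SE 0.466). In quadriceps, 31.97, 71.3 and 81.4 CPM compared with 13.8, 18.9 and 16.1 CPM (−1.92, SE 0.327). None of these 4 tissues had a cold library inside the 22 °C range. In ileum, where Dbp was low throughout, 1.46, 4.69 and 7.61 CPM compared with 1.27, 1.69 and 1.57 CPM (−1.63, SE 0.531), so that 22 °C replicate 1 fell inside the cold range. This call was lost without 10 °C replicate 1, at −1.51, or without 22 °C replicate 3, at −1.05.

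Tef was called lower in the 3 fat depots and in no other tissue. It went from 188, 224 and 271 CPM to 136, 128 and 124 CPM in iBAT (−0.82, SE 0.147), from 145, 255 and 226 CPM to 103, 81.4 and 106 CPM in ingSAT (−1.11, SE 0.226) and from 174, 256 and 231 CPM to 113, 101 and 106 CPM in pgVAT (−1.04, SE 0.248). The groups did not overlap in any depot. In ileum Tef was at −0.57 (SE 0.198), a fold of 1.48 just under the limit, with overlapping groups. Hlf, the third PAR bZIP gene, was called in ileum alone, at 1.63, 2.42 and 3.35 CPM against 1.58, 0.964 and 1.06 CPM (−1.03, SE 0.329), and the call was lost without 22 °C replicate 3, at −0.74. In iBAT, ingSAT and pgVAT its libraries overlapped, with log2 fold changes of −0.38, SE 0.224, of −0.40, SE 0.405 and of −0.23, SE 0.467.

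Nfil3, the repressor at the D-box, was called higher in all 3 fat depots. In pgVAT it had 7.11, 5.68 and 3.69 CPM at 22 °C and 14.3, 26.98 and 16.4 CPM at 10 °C (log2 fold change 1.79, SE 0.381). In ingSAT, 15.7, 7.02 and 5.27 CPM compared with 28.2, 24.5 and 20.1 CPM (1.39, SE 0.398). In iBAT, 21.6, 16.9 and 18.5 CPM compared with 22.2, 44.7 and 26.3 CPM (0.71, SE 0.243). Every cold library lay above every 22 °C library in each depot, in iBAT by a small margin at the closest pair. The iBAT call was lost without 10 °C replicate 2, at 0.37, without 22 °C replicate 2, at 0.63, and with scaling by library size only, at 0.53, where the median of all genes was −0.18. Ileum had the same order under the fold limit, at 17.2, 20.5 and 19.3 CPM against 27.9, 27.95 and 23.8 CPM (0.48, SE 0.108). In quadriceps the 22 °C libraries had 61.6, 21.2 and 21.7 CPM and the cold ones 42.6, 40.3 and 37.6 CPM. Library 1, the one with pancreas transcripts, thus stood apart from its group in Nfil3, and it also had the lowest Dbp, Tef and Nr1d2 of its group. The part of the pancreas RNA in this was not tested.

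Bhlhe40, a repressor at E-boxes, had the most positive fold change of the 8 genes in iBAT. Its 22 °C libraries had 43.5, 45.7 and 53.2 CPM and its 10 °C libraries 176, 242 and 248 CPM, a log2 fold change of 2.22 (SE 0.162). The groups were far apart. The immediate early markers summed to 161 to 264 CPM at 22 °C and 107 to 180 CPM at 10 °C in these libraries, with 2 of 3 called lower. In ingSAT Bhlhe40 had 24.2, 55.9 and 30.9 CPM against 60.5, 54.3 and 98.5 CPM (0.94, SE 0.357), with 1 cold library inside the 22 °C range. That call was lost in 3 of 6 fits with 1 library left out, at values from 0.65 to 0.84 (without 10 °C replicate 3, 22 °C replicate 1 or 22 °C replicate 3). In quadriceps its libraries did not overlap, at 126, 148 and 142 CPM against 101, 116 and 85.7 CPM, but the change of −0.46, SE 0.137 was under the fold limit.

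Bhlhe41, its paralog, was called lower in iBAT at 10.7, 13.4 and 17.8 CPM against 12.1, 5.23 and 8.83 CPM (log2 fold change −0.67, SE 0.292), with overlapping groups. The call was lost in 4 of 6 fits with 1 library left out, at values from −0.71 to −0.41 (without 10 °C replicate 2 or 3, or 22 °C replicate 2 or 3). In ingSAT the Bhlhe41 groups overlapped too, at −0.88 (SE 0.438), without a call. In pgVAT both DEC genes moved with the epididymis transcripts. Bhlhe41 had 58.8, 6.61 and 56.8 CPM in 10 °C replicates 1, 2 and 3, and Bhlhe40 80.1, 21.7 and 94.4 CPM, so that both were high in replicates 1 and 3, the libraries rich in these transcripts. At 22 °C they ran from 10.1 to 27.5 CPM and from 21.4 to 37.8 CPM. Without the rich libraries, with 1 cold library that is assumed to vary like the others, the log2 fold change of Bhlhe41 turned from 0.97 to −1.62 and was called lower, and that of Bhlhe40 turned from 1.11 to −0.45. Hlf moved to −1.47 and Nr1d2 to −1.47, both then called lower. The 4 genes called in pgVAT kept their sign and their call, at −2.36 for Nr1d1, −2.57 for Dbp, −1.10 for Tef and 2.28 for Nfil3.

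**Figure D3:**
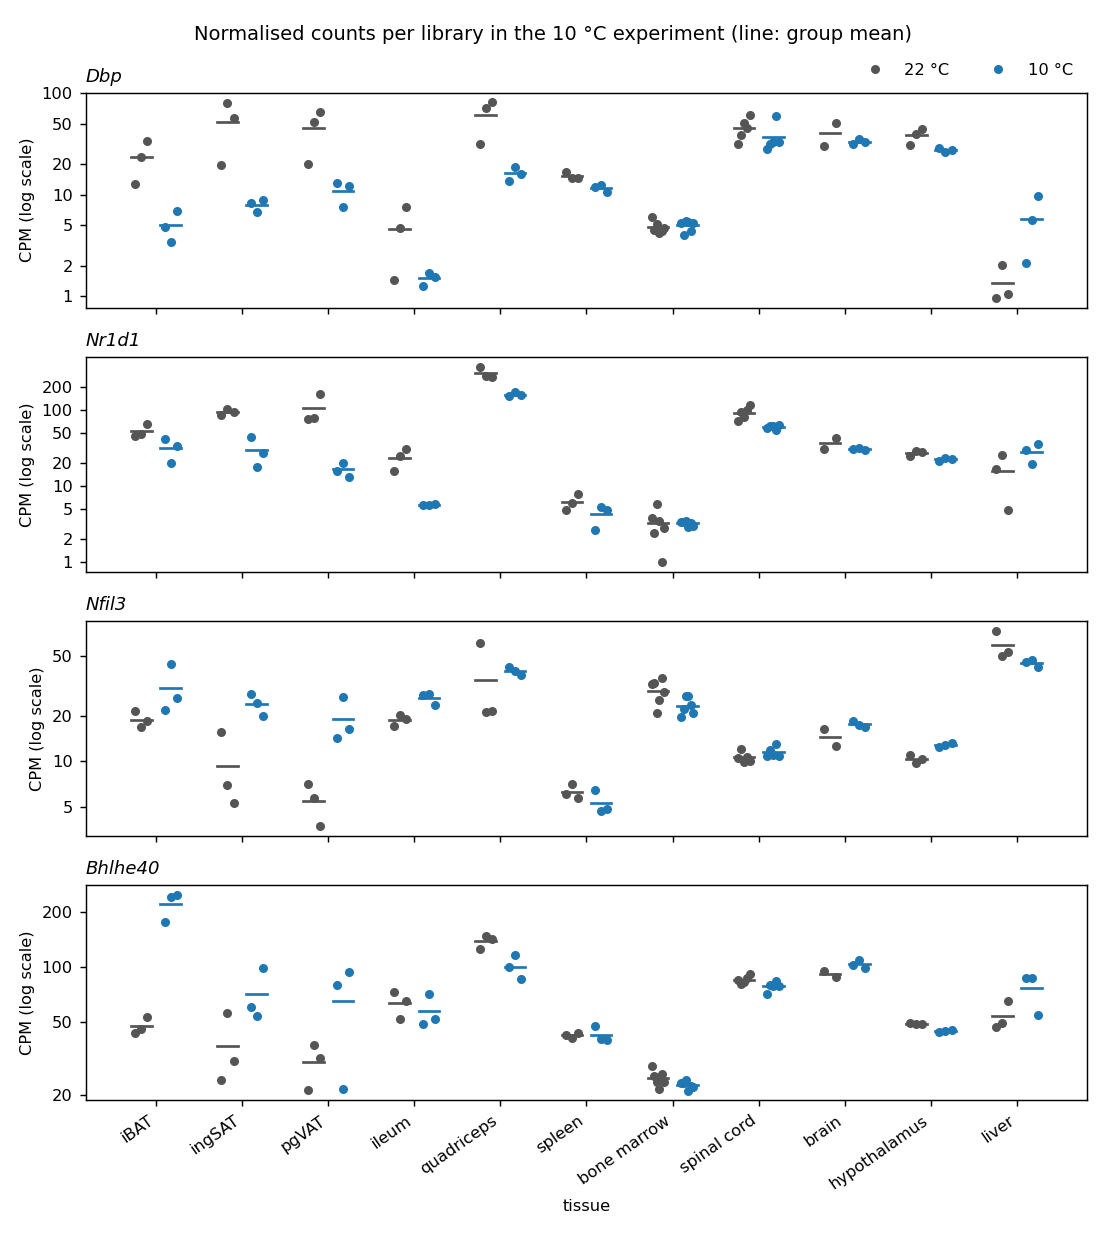
CPM of Dbp, Nr1d1, Nfil3 and Bhlhe40 (vertical axes on a log scale) in each library of the 10 °C experiment by tissue, grey for 22 °C and blue for 10 °C, with a line at each group mean. Dbp and Nr1d1 lie lower at 10 °C in the fat depots and quadriceps, and Dbp lies higher in liver.

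In liver Dbp and Nr1d2 had the opposite order. Dbp had 0.963, 2.05 and 1.07 CPM at 22 °C and 2.15, 5.62 and 9.71 CPM at 10 °C, a log2 fold change of 2.11 (SE 0.517). All cold libraries were above all 22 °C libraries, but the closest pair by a small margin and at a low level. Nr1d2 had 34.9, 38.02 and 26.2 CPM against 56.9, 45.04 and 59.1 CPM (0.70, SE 0.147), without overlap, and its call was lost without 22 °C replicate 3, at 0.55. Nr1d1 was not called, at 16.9, 25.2 and 4.86 CPM against 29.7, 19.6 and 35.7 CPM (0.86, SE 0.442). The libraries of Tef (0.45, SE 0.130), Nfil3 (−0.39, SE 0.135) and Hlf (−0.58, SE 0.147) did not overlap between groups, with changes under the fold limit. In 22 °C replicate 3, the lowest in Nr1d1, brown adipocyte markers summed to 112.8 CPM, against at most 21.2 CPM in the other libraries. The hepatocyte markers summed to 55940 to 62860 CPM at 22 °C and 79610 to 82840 CPM at 10 °C, with 0 of 4 called. The part of either in the result was not tested.

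Markers of other cells moved with temperature in the tissues with called genes. In iBAT the 6 skeletal muscle markers summed to 5900 to 8808 CPM at 22 °C and 2385 to 4951 CPM at 10 °C, with 4 of 6 called lower. The 5 adipocyte markers there summed to 8959 to 11790 CPM and 4587 to 4757 CPM, with 1 called lower, and the hepatocyte markers to 40.7 to 74.8 CPM and 0.508 to 1.38 CPM, with 3 of 3 tested called lower. The brown adipocyte markers in iBAT went the other way, at 7008 to 11620 CPM and 12230 to 16030 CPM, with 3 of 4 called higher. In ingSAT the brown adipocyte markers summed to 68.6 to 124 CPM at 22 °C and 1806 to 2355 CPM at 10 °C, with 3 of 3 tested called higher. In pgVAT the immediate early markers summed to 97.5 to 195 CPM and 42.9 to 83.1 CPM, with 2 of 3 called lower, and 1 gene each of the adipocyte, skeletal muscle, enterocyte, B-cell and neutrophil precursor lists was called lower.

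In quadriceps the brown adipocyte markers summed to 228 to 340 CPM at 22 °C and 251 to 425 CPM at 10 °C, with 2 of 3 tested called higher, and the adipocyte markers to 1051 to 1281 CPM and 1286 to 1989 CPM, with 3 of 5 called higher. The skeletal muscle markers there summed to 188300 to 265600 CPM and 128400 to 199200 CPM, with 0 of 6 called. In ileum the enterocyte markers summed to 7661 to 8609 CPM at 22 °C and 12540 to 14500 CPM at 10 °C, with 2 of 4 called higher. In ileum 1 gene each of the adipocyte, skeletal muscle and hepatocyte lists was called higher, and 1 each of the neuron and oligodendrocyte lists lower. In spinal cord the immediate early markers summed to 43.1 to 55.8 CPM and 72.1 to 78.9 CPM, with 1 of 3 called higher, and 2 of 2 neutrophil precursor markers tested were called higher. The part of these markers in the changes of the clock output genes was not tested.

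In brain, hypothalamus, spleen and bone marrow no gene passed the fold limit. Log2 fold changes over the 8 genes ran from −0.29 to 0.29 in brain, from −0.49 to 0.30 in hypothalamus, from −0.55 to 0.13 in spleen and from −0.33 to 0.22 in bone marrow. The libraries of Dbp did not overlap in hypothalamus, at 31.2, 39.8 and 44.8 CPM against 28.8, 26.3 and 27.8 CPM (−0.49, SE 0.111), nor in spleen, at 16.7, 14.7 and 14.6 CPM against 11.9, 12.6 and 10.6 CPM (−0.39, SE 0.118). Also without overlap, Nfil3 was higher and Nr1d1 and Bhlhe40 were lower in hypothalamus, and Nr1d2 and Tef were lower in spleen. In brain, with 2 libraries at 22 °C, Hlf, Nfil3 and Bhlhe40 were higher without overlap. In bone marrow, with 6 single mice in each group, the groups overlapped for all 8 genes. Large groups overlap more readily than small ones, so this cannot be set against the other tissues. Nfil3 was at −0.33 (SE 0.119) there, under the fold limit.

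At 34 °C 2 of 40 pairs of gene and tissue were called, both in iBAT and both higher. In iBAT 12.2% of genes were called higher and 7.19% lower. Dbp had 105, 138 and 71.4 CPM at 22 °C and 132, 160 and 201 CPM at 34 °C (log2 fold change 0.65, SE 0.250), and 1 warm library lay inside the 22 °C range. Bhlhe41 had 14.6, 29.9 and 27.3 CPM against 33.6, 41.03 and 40.8 CPM (0.69, SE 0.249), without overlap. The Dbp call was lost in 4 of 6 fits with 1 library left out, at values from 0.43 to 0.65 (without 22 °C library 1 or 3, or 34 °C library 2 or 3). The Bhlhe41 call was lost in 3 of 6 fits with 1 library left out, at values from 0.43 to 0.63 (without 22 °C library 1, or 34 °C library 2 or 3). The skeletal muscle markers summed to 2.83 to 4513 CPM in the 22 °C libraries and 987 to 3536 CPM in the 34 °C libraries, and the brown adipocyte markers to 9467 to 12540 CPM and 4612 to 5989 CPM, with 1 of 4 called lower. Their part was not tested. In the other tissues no member was called, where 1.57% of genes were higher and 1.26% lower in ileum, 1.77% and 1.61% in liver, 0.289% and 0.919% in quadriceps, and 0.0429% and 0.15% in brain. In brain the Bhlhe40 libraries did not overlap, at 137, 157 and 154 CPM against 109, 123 and 136 CPM (−0.29, SE 0.0817), under the fold limit. Nfil3 did not overlap there either, with means of 10.3 CPM at 22 °C and 8.52 CPM at 34 °C (−0.27, SE 0.109), also under the fold limit.

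In ileum of the warm experiment the libraries of each group were widely spread. Dbp had 64.4, 38.8 and 9.62 CPM at 22 °C and 9.25, 68.04 and 109 CPM at 34 °C, so that 1 library of each group lay far below its fellows. These libraries, 22 °C library 3 and 34 °C library 1, were also the lowest of the 6 in Tef (51.9 and 53.5 CPM against 113 to 227 CPM), in Hlf (1.53 and 1.93 CPM against 5.60 to 12.2 CPM), in Nr1d2 (48.0 and 43.0 CPM against 92.3 to 148 CPM) and in Nr1d1 (153 and 164 CPM against 249 to 296 CPM). Nfil3 had the opposite order, with 17.4 and 22.4 CPM in these libraries and 2.83 to 8.30 CPM in the others. Of the core clock genes, Arntl followed Nfil3 at 46.6 and 49.7 CPM against 6.90 to 27.3 CPM, and Per3 followed the PAR bZIP genes at 8.07 and 8.62 CPM against 24.04 to 70.8 CPM. Bhlhe40 had 129, 168 and 146 CPM and 140, 109 and 125 CPM and did not set these libraries apart. The B-cell markers summed to 57.9 to 331 CPM at 22 °C and 5.01 to 146 CPM at 34 °C, and their part was not tested.

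**Figure D4:**
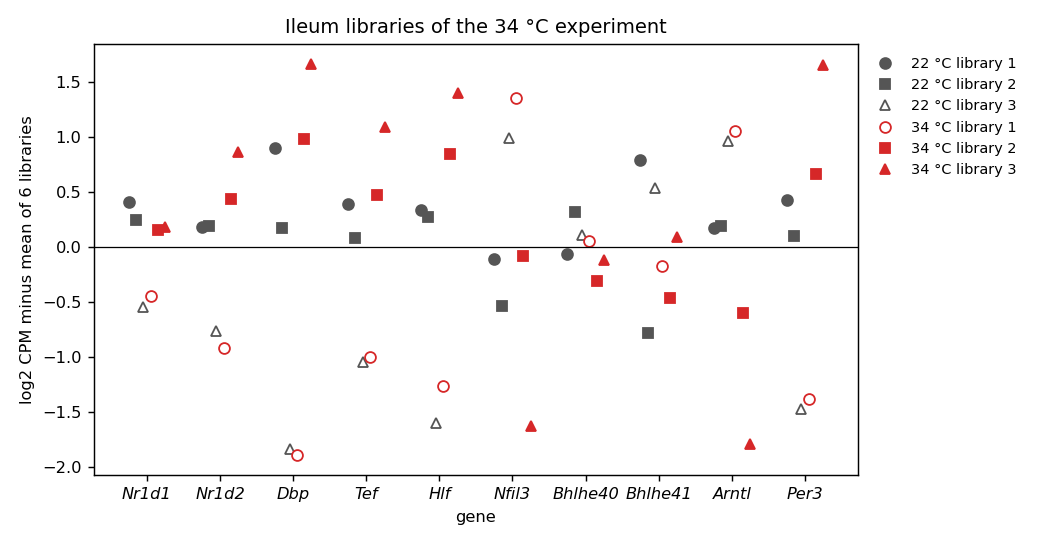
Log2 CPM minus the mean of the 6 ileum libraries of the 34 °C experiment (vertical axis) for the 8 genes, Arntl and Per3, grey for 22 °C and red for 34 °C, with open symbols for 22 °C library 3 and 34 °C library 1. The open symbols are low for Dbp, Tef, Hlf, Nr1d2, Nr1d1 and Per3 and high for Nfil3 and Arntl.

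Within groups over the whole series a like order was visible for Nr1d2, Dbp, Tef, Hlf and Nfil3, and weakly if at all for Nr1d1. After the mean of each of the 32 groups of libraries was subtracted, log2 CPM of Dbp and Tef correlated over 105 libraries at a Pearson's r of 0.84 (Spearman's rho 0.70). Tef and Hlf were at 0.78 (0.63), Nr1d2 and Hlf at 0.78 (0.60) and Nr1d2 and Tef at 0.75 (0.58), with rho in parentheses. Nfil3 was negative with each of these, at −0.69 (−0.39) with Tef, −0.65 (−0.36) with Nr1d2, −0.64 (−0.36) with Hlf and −0.63 (−0.42) with Dbp. Nr1d1 was weakly related to its paralog Nr1d2, at 0.24 (0.24), and to Dbp, at 0.28 (0.20). Without the ileum of the warm experiment Nr1d1 was at 0.16 with Nr1d2 and 0.20 with Dbp. It was then at 0.04 with Tef, −0.002 with Hlf and −0.16 with Nfil3. Bhlhe40 and Bhlhe41 were at 0.65 (0.30). Their r was 0.52 with the 2 libraries farthest from the median of Bhlhe40 left out, and 0.71 without the ileum of the warm experiment. The cold pgVAT libraries, in which both genes moved with the epididymis transcripts, enter these correlations. The part of the epididymis RNA in the r of Bhlhe40 and Bhlhe41 was not tested. Bhlhe40 with Tef was at 0.04 (0.04). Libraries of a group share tissue and scaling, and libraries of different tissues may come from the same mice. The 105 libraries may thus not be independent samples. The ileum of the warm experiment also weighs on the values. Without it Dbp and Tef were at 0.71 over 99 libraries, Tef and Hlf at 0.58 and Tef and Nfil3 at −0.45. With the 2 libraries farthest from the median of the first gene left out, Dbp and Tef were at 0.77 and Tef and Nfil3 at −0.53.

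**Figure D5:**
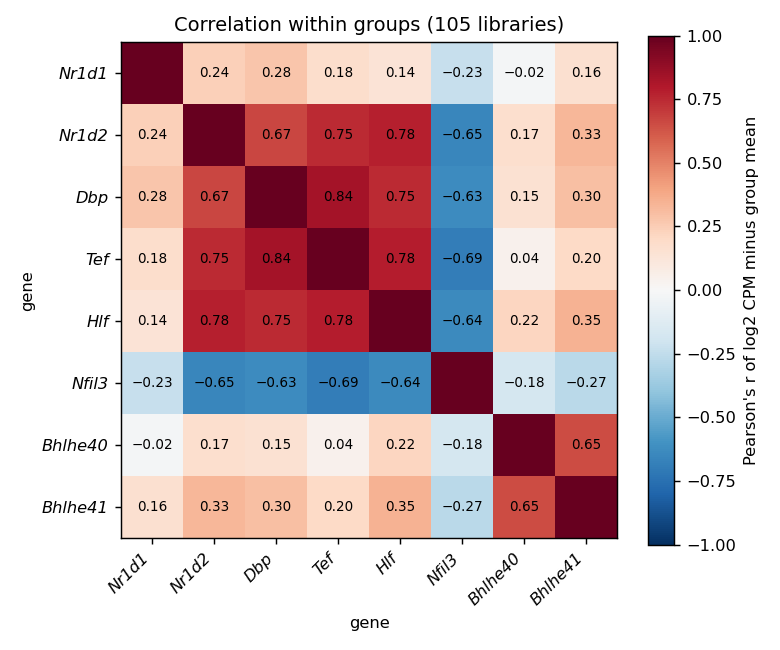
Pearson's r between the genes over 105 libraries, computed on log2 CPM after subtracting each group's mean. Nr1d2, Dbp, Tef and Hlf form a block of values from 0.67 to 0.84, and Nfil3 is negative with each of them. Bhlhe40 and Bhlhe41 are at 0.65, a value that includes cold pgVAT libraries in which both moved with the epididymis transcripts.

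The spread between libraries of a group was wide for several of these genes. Dbp had a median coefficient of variation of 22.5% over 31 groups of at least 3 libraries, against a median of 9.87% for the 500 genes nearest in mean level, and in 18 of the 31 groups it was above the 90th percentile of these genes. Nr1d1 had a median of 21.6% against 9.05% and passed that percentile in 13 groups. Hlf, at 18.6%, passed it in 11 groups, and Tef, at 11.0%, in 7. Nfil3, at 13.3%, passed it in 11 groups, Nr1d2 (9.28%) and Bhlhe40 (11.1%) in 10 each, and Bhlhe41 (14.3%) in 7 of 29. Most groups hold 3 libraries, which gives an imprecise coefficient.

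Over the libraries of all 16 comparisons, centred on the mean of each comparison, Per3, a period gene of the core clock, was the gene outside the 8 most alike to Tef (Pearson's r = 0.91), Dbp (0.81), Nr1d2 (0.79) and Hlf (0.66), among 9182 genes tested everywhere. Temperature and library spread both enter these values. Nr1d1 was most alike to Thra (0.70), the gene that shares exon bases with it on the opposite strand, then to Tns2 (0.68) and Tln2 (0.64). Nfil3 was most alike to Cyp51 (0.64), Arntl (0.60) and Cry1 (0.60), Bhlhe40 to Prkab1 (0.66), Pebp1 (0.66) and Bmyc (0.65), and Bhlhe41, over 99 libraries, to Mfge8 (0.62), Bbs9 (0.59) and Trp53bp1 (0.59). The most negative values were those of Arntl for Tef (−0.79), Dbp (−0.74) and Hlf (−0.63), of Cry1 for Nr1d1 (−0.72) and Nr1d2 (−0.66) and of Per3 for Nfil3 (−0.71).

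Of the 8 core clock genes, 11 of 87 pairs of gene and tissue were called higher and 8 lower at 10 °C, and 1 higher and 1 lower of 37 at 34 °C. Of all genes, 0.181% (spinal cord) to 7.2% (ingSAT) were called higher and 0.0904% to 9.14% lower at 10 °C. At 34 °C it was 0.0429% (brain) to 12.2% (iBAT) higher and 0.15% to 7.19% lower. Arntl, the partner of CLOCK and a REV-ERB target, was higher in iBAT (log2 fold change 1.21, SE 0.276), ingSAT (1.05, SE 0.320) and pgVAT (1.03, SE 0.379). Cry1, a cryptochrome repressor, was higher in iBAT (1.32, SE 0.217), ingSAT (1.58, SE 0.161), pgVAT (0.96, SE 0.263) and ileum (0.84, SE 0.170). Per3 was lower in iBAT (−1.36, SE 0.151), ingSAT (−1.29, SE 0.251) and pgVAT (−1.06, SE 0.268), as was Per1 (−0.96, SE 0.292 in iBAT, −0.92, SE 0.272 in ingSAT and −0.96, SE 0.329 in pgVAT). Npas2, a CLOCK paralog, was higher in iBAT (1.73, SE 0.469), quadriceps (1.12, SE 0.368) and spleen (0.73, SE 0.217) and lower in liver (−0.91, SE 0.214). Per2 was higher in ileum (0.96, SE 0.180) and lower in pgVAT (−0.87, SE 0.327). At 34 °C Clock was lower (−0.81, SE 0.120) and Cry2 higher (0.88, SE 0.102), both in iBAT.

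Of 8 genes listed as repressed by REV-ERB, 19 of 70 pairs were higher and 3 lower at 10 °C, and 1 of 30 higher and 5 lower at 34 °C. Of the 19, 10 were the calls of Arntl, Cry1 and Npas2 given above and 3 those of Nfil3. The rest were calls of Pck1, G6pc or Ucp1, of which Ucp1 is also one of the brown adipocyte markers. By tissue, 5 of 7 genes tested were higher in iBAT (6% of all genes) and 4 of 7 in ingSAT (7.2%). In pgVAT 3 of 7 were higher (4.46%), and in ileum 3 of 7 (1.44%). Quadriceps had 2 of 7 higher (3.09%), and hypothalamus (0.399%) and spleen (0.638%) had 1 of 6 each. The 3 lower calls were 1 each in iBAT (7.24%), ingSAT (9.14%) and liver (2.54%). Of 8 listed PAR bZIP and NFIL3 targets, several of them genes of drug and heme metabolism, 3 of 51 pairs were higher and 3 lower at 10 °C, and 4 of 27 higher and 1 lower at 34 °C. Por, the cytochrome P450 reductase, was lower in ingSAT (−1.03, SE 0.218), and Pdxk, the pyridoxal kinase, was higher in iBAT (0.64, SE 0.172) and lower in liver (−0.64, SE 0.134). Of 8 other rhythmic genes, 6 of 86 pairs were higher and 4 lower at 10 °C, and 2 of 40 higher and 1 lower at 34 °C. The shares of all genes given for the core clock genes apply to these lists too. These lists overlap one another and were written with earlier results of these data known, so nothing is read from their counts.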

How the data were processed

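RNA-seq libraries from mouse tissues were deposited as raw read counts per gene, which the authors made by aligning reads to mm10 and counting them per gene; the submitters' processing notes name STAR 2.5.3a, Picard 1.141 and HTSeq 0.6p1 without giving their order. Deposited counts were used as they stand in 4 tables. TruSeq stranded mRNA kits were used for bone marrow, spinal cord and the 34 °C experiment and NEBNext Ultra, which does not mark strand, for the 8 tissues of the largest table, so levels were compared within a table. For quadriceps at 10 °C the labels name the TruSeq kit, while the study's methods name it for the 34 °C samples alone among quadriceps libraries. Temperatures were taken from sample titles. Tests were run in R 4.3.3 with edgeR 4.0.16 (TMM, average log2 CPM above 0, glmQLFTest), 1 fit per comparison over its own libraries, and checked on simulated counts. Replicates are separate samples, mostly pools. Of 106 libraries, 105 were used: the authors' brain means match 22 °C replicates 1 and 3 in 1960 of 1960 genes and all 3 replicates in 35 (tolerance 0.01), so replicate 2 was left out. The quadriceps 22 °C libraries named beside the 10 °C columns match the authors' means in 1961 of 1961 genes and were used at 10 °C, the other 3 at 34 °C. Fat depots at 34 °C other than iBAT were not analysed here. The members and gene lists were chosen with earlier results of these data known. Genes named are the 8 members, genes of the fixed lists, and the 3 most alike and the least alike gene of each member. Alternatives were edgeR's exact test, DESeq2 1.42.0, library-size scaling, an adjusted p, no filter, a replicate block, all 22 °C libraries, and each library left out in turn, except in bone marrow. The result of 1 further gene list is not reported here.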

Additional observations from a re-analysis of the deposited data

Results flagged for a closer look

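In spinal cord at 10 °C, Dbp in replicate 4 was at 59.21 CPM, far above the other 4 cold libraries (28.4 to 33.2 CPM) and near the highest 22 °C library (60.6 CPM). It was the 1 such value in 32 combinations of gene and group (8 genes in 4 groups of 5 or 6 libraries), where chance gives about 1 in 20.

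Dbp and Nr1d2 moved in opposite directions between tissues at 10 °C, with every cold library above every 22 °C library in liver and below it in the other tissues named here. The log2 fold change of Dbp was 2.114 in liver against −2.224 in iBAT, −2.711 in ingSAT, −2.06 in pgVAT and −1.921 in quadriceps. That of Nr1d2 was 0.701 in liver against −1.133 in iBAT, −1.211 in ileum and −1.02 in ingSAT. The difference between tissues was not tested.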

How the results depend on the processing

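The main counts were 7 higher and 19 lower at 10 °C and 2 higher and 0 lower at 34 °C. With a Benjamini-Hochberg adjusted p under 0.05 in edgeR's quasi-likelihood test they were 1, 7, 0 and 0. DESeq2 gave 8, 20, 2 and 0, and library-size scaling 6, 22, 3 and 0, with the median of all genes moved to −0.18 in iBAT and 0.25 in quadriceps at 10 °C and to 0.30 in iBAT at 34 °C. With 1 library left out, in tissues other than bone marrow, they ranged from 6 to 9, from 17 to 21, from 0 to 4 and from 0 to 1. The 34 °C count fell to 0 or 1 without 22 °C library 1 or 3 or 34 °C library 2 or 3 of iBAT and rose to 4 without 34 °C library 3 of liver, and 1 gene was called lower without 22 °C library 2 of ileum. Of 342 alternatives of the 28 calls, 296 kept the call, 46 lost it and 0 reversed it, and 18 calls were kept in every fit with 1 library left out. Without the epididymis-rich libraries of pgVAT, an alternative chosen after seeing the data, 7 and 22 pairs were called at 10 °C. With the replicate block 7 and 18 pairs were called at 10 °C, and Nr1d1 in spinal cord was lost at −0.53. Same-numbered libraries correlated between −0.713 and 0.574 in their deviations, and in no tissue did every library correlate best with its own number, so the numbers were not taken as pairs. Other calls lost are named in the report or were lost to the adjusted p.

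In the 8 tissues of the largest table, r moved to 0.493 for Nr1d2 and Dbp, 0.538 for Nr1d2 and Tef, −0.473 for Nr1d2 and Nfil3, 0.558 for Nr1d2 and Bhlhe41, 0.593 for Dbp and Hlf, 0.628 for Tef and Hlf, −0.378 for Tef and Nfil3, 0.316 for Tef and Bhlhe40, 0.471 for Tef and Bhlhe41, 0.54 for Hlf and Bhlhe40, 0.716 for Hlf and Bhlhe41, −0.422 for Nfil3 and Bhlhe40 and −0.644 for Nfil3 and Bhlhe41. Without the ileum of the 34 °C experiment, chosen after seeing the data, r was 0.482 for Nr1d2 and Dbp, 0.578 for Nr1d2 and Tef, 0.639 for Nr1d2 and Hlf, −0.454 for Nr1d2 and Nfil3, 0.708 for Dbp and Tef, 0.571 for Dbp and Hlf, −0.432 for Dbp and Nfil3, 0.582 for Tef and Hlf, −0.448 for Tef and Nfil3 and −0.399 for Hlf and Nfil3. The cause of these shifts was not tested. Groups of 3 libraries limit every comparison, and Dbp in liver and ileum and Hlf in ileum rest on few CPM.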

Other observations

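The brain library at 22 °C that the comparisons leave out, replicate 2 of the cold experiment, stood apart in these genes. On counts scaled by its total alone it had 213 CPM of Tef, against 360 and 384 CPM in replicates 1 and 3 on the TMM scale, and 57.6 CPM of Hlf, against 82.8 and 78.7 CPM. Dbp was at 17.5 CPM against 30.1 and 51.2 CPM, and Nr1d2 at 91.3 CPM against 119 and 115 CPM. Nfil3 was at 33.1 CPM against 16.5 and 12.7 CPM, while Bhlhe40 was at 88.4 CPM against 94.9 and 88.9 CPM.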
